A study of Mus musculus with 15 samples.

Results

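Solute carriers are membrane proteins that move nutrients, ions and metabolites across the plasma membrane and the membranes of organelles. Their gene symbols are built from Slc, a family number, the letter a and a member number. The transport classes below were set by family number alone and are named for the usual solute. A family can also hold carriers of other solutes, such as the multivitamin carrier Slc5a6 in a sugar family. Genes were chosen by that form of the symbol in the array annotation, leaving out Slc7a5, Slc3a2, Slc2a1 and Slc2a3, and 273 genes of the arrays had it. A gene was read on the probe set whose mean over all 5 treatments was highest, and a gene was described where this value reached 4 times the median of its chip type in any treatment. That left 84 solute carrier genes, of 6337 genes that reached the same level and 15964 genes with 1 symbol on the arrays.

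Gene expression was measured on oligonucleotide arrays in A.E7, a clone of mouse CD4 T helper cells. They were stimulated through the T cell receptor (TCR) with anti-TCR plus cyclosporin A (CSA), with anti-TCR plus a protein kinase C inhibitor that the labels do not name (PKCi), with anti-TCR plus rapamycin, PD98059 and SB203580 (Combo), or with anti-TCR alone, which the array titles call anergic, or they were mock treated. Each treatment is 1 RNA pool from 2, 4 and 6 h, hybridised to chip types A, B and C, which hold different probe sets, so there were 15 arrays and 1 value per gene and treatment. There were no replicates, so no difference could be tested and none has an error over cultures, and the small number of arrays is what limits precision. The line is 1 clone, and in pooled RNA a change per cell and a change in the mix of cells cannot be told apart.

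As background, cyclosporin A blocks calcineurin, the phosphatase that activates NFAT factors after receptor engagement. Rapamycin blocks mTOR, PD98059 the kinase MEK and SB203580 the kinase p38. An activated T cell takes up more glutamine and other amino acids, glucose and nucleosides than a resting one, and amino acid supply feeds back on mTOR from the lysosome. Most carriers of family 25, the class called mitochondrial carriers below, pass metabolites, nucleotides and cofactors through the inner mitochondrial membrane.

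Intensities are linear array units, and a level is comparable between treatments for 1 gene but not between genes. The chip medians were 51.1 (A), 69.5 (B) and 55.0 (C). They served as the floor, to which lower values were raised before a ratio was taken, and the minimum was 4 times the floor (204.4, 278 and 220). A gene was measured in a comparison where the brighter value reached the minimum, and it rose or fell where the ratio was at least 2-fold. "At least" before a fold marks a dimmer value at or below the floor. The yardstick for a ratio was a technical SD, taken from genes that have probe sets on more than 1 chip type, and it was 0.76 (log2) for anti-TCR alone against mock over 848 pairs. For CSA, PKCi and Combo against anti-TCR alone it was 0.48, 0.71 and 0.55. It covers arrays and probe sets and not cultures.

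The cells carried the markers of the labelled type. Of 10 CD4 T cell markers on the arrays 9 reached the minimum, Cd4 itself at 598 to 879.6, and the exception was Cd5 (at most 12.1). None of 2 CD8 T cell, 3 B cell and 1 erythroid marker did, with at most 7.5, 87.8 and 38.8. Of 5 myeloid markers 1 did, Cd14, at 288.4 with CSA, 209.9 with PKCi, 203.4 with Combo, 219.2 with anti-TCR alone and 293.3 with mock. The receptor-induced factor Egr2 read 582 with CSA, 41.7 with PKCi, 2116 with Combo, 3325 with anti-TCR alone and 43.8 with mock, so the PKCi and mock values both lay below the floor.

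Solute carrier genes as a group moved about as often as other genes. With anti-TCR alone against mock, which asks what receptor engagement changes, 7 of 76 measured solute carrier genes rose (9.21%, against 11.4% of all genes measured) and 9 fell (11.8%, against 13.9%). With CSA against anti-TCR alone, which asks what calcineurin contributes, 4 of 70 rose (5.71%, against 4.84%) and 5 fell (7.14%, against 5.34%). With PKCi against anti-TCR alone 12 of 78 rose (15.4%, against 14.3%) and 8 fell (10.3%, against 9.75%). With Combo against anti-TCR alone 5 of 67 rose (7.46%, against 7.95%) and 3 fell (4.48%, against 5.46%). All 8 shares lay close to those of all genes, so the counts are no result about solute carriers, and what follows is about single genes and classes. Slc1a5 is in all 4 pairs of counts, and its probe sets went different ways, as given with the amino acid carriers.

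The medians lay close to those of all genes too. The median log2 ratio of the measured solute carriers was 0.00 for anti-TCR alone against mock (all genes -0.08), 0.04 for CSA (0.03), 0.02 for PKCi (0.03) and -0.03 for Combo (0.02), the last 3 against anti-TCR alone. A gene near the minimum is measured only through the treatment in which it is bright, so these counts and medians describe the measured genes and not all 273. With the minimum set on the mean of the 5 treatments instead, 60 genes were measured in each comparison and 6 rose and 5 fell with anti-TCR alone against mock. In all, 29 of the 84 genes were at least 2-fold apart in 1 or more comparisons (34.5%, against 36.3% of the 6337 genes) and 55 in none. The classes below hold 1 to 18 genes each, so their counts are given beside the shares of all genes as a description, and no difference between a class and all genes was tested. The 3 inhibitor comparisons share the anti-TCR arrays with each other and with the first comparison, so a single high or low anti-TCR value enters all 4 ratios of a gene.

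**Figure D1:**
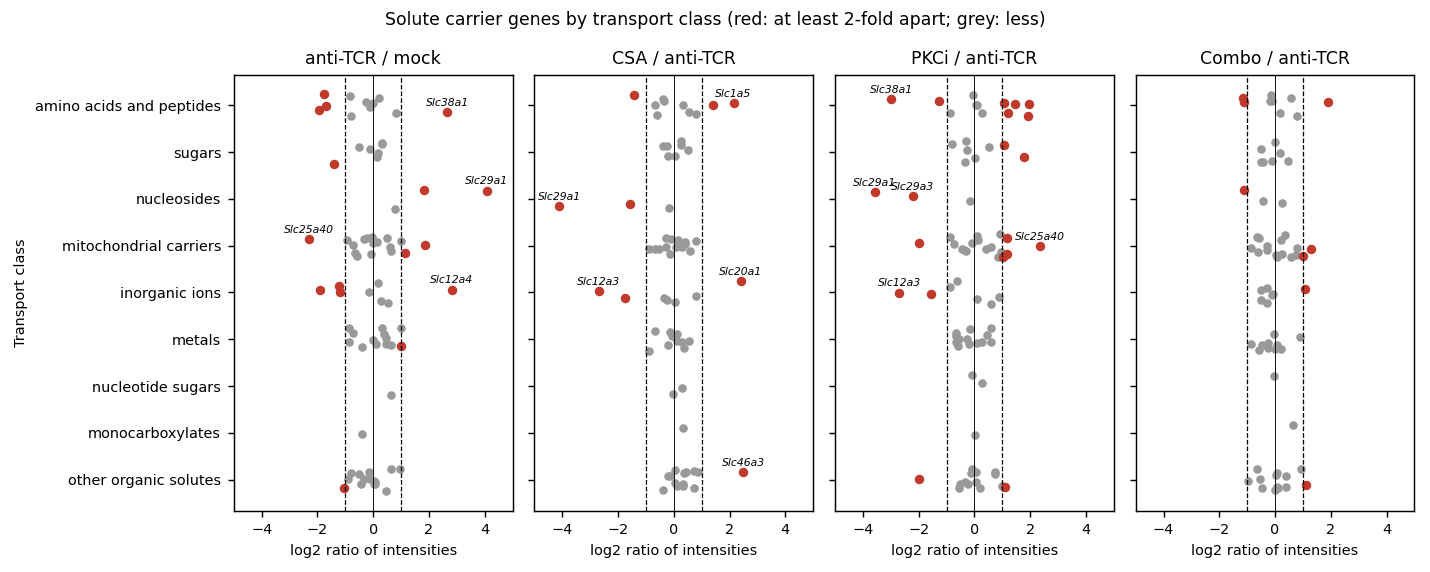
Log2 ratio of array intensities (x axis) of every measured solute carrier gene, by transport class (rows), in the 4 comparisons, with the first-named treatment on top of the ratio. Each point is 1 gene, red where it was at least 2-fold apart (dashed lines at -1 and 1) and grey otherwise, and genes past 2 in log2 are named. Most points lie between the dashed lines, the metal class holds 1 red point in all, and Slc29a1 is farthest out at 4.08 and -4.11.

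The nucleoside carriers held the widest swing of all solute carrier genes. Slc29a1 encodes ENT1, the equilibrative nucleoside transporter of the plasma membrane. It read 55.7 with CSA, 80.8 with PKCi, 450.1 with Combo, 964 with anti-TCR alone and 57.1 with mock. Only the anti-TCR and Combo arrays lay above the minimum of 204.4, and the CSA and mock values were near the floor of 51.1. The gene rose 16.9-fold with anti-TCR alone against mock (log2 ratio 4.08). Against anti-TCR alone it fell 17.3-fold with CSA (-4.11), 11.9-fold with PKCi (-3.58) and 2.14-fold with Combo (-1.10). With the floor at 2 times the median, which lies above the mock and CSA values, the log2 ratios were 3.24 for anti-TCR alone and -3.24 for CSA. The Combo ratio lay just within 2 technical SDs of that comparison (1.11) and was -0.99 with each array scaled to the chip median, which is under 2-fold.

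Slc29a3 encodes ENT3, an equilibrative nucleoside transporter of lysosomes and other intracellular membranes. Its intensity was 249.5 with CSA, 161 with PKCi, 559.9 with Combo, 747 with anti-TCR alone and 212 with mock. As for Slc29a1, anti-TCR alone gave the highest value and Combo the next. The rise with anti-TCR alone was 3.53-fold (1.82), and the gene fell 3-fold with CSA (-1.58) and 4.64-fold with PKCi (-2.21), with -0.42 for Combo. The third nucleoside carrier, Slc28a1, which encodes the sodium-coupled transporter CNT1, read 334 with CSA, 336 with PKCi, 448 with Combo, 377 with anti-TCR alone and 219 with mock. None of its ratios reached 2-fold (0.78, -0.17, -0.17 and 0.25 in the order of the 4 comparisons).

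Promoter windows are shown for 5 examples among the genes that passed 2 technical SDs in a comparison, picked after their values were seen, 3 that rose with anti-TCR alone (Slc29a1, Slc29a3 and Slc25a33) and 2 that fell (Slc20a1 and Slc25a40). The sequences are those of RefSeq on GRCm38.p6, from 250 bases before to 50 bases after an annotated start. RefSeq held such windows for 62 of the 84 genes. Slc29a1 has 8 annotated windows and Slc20a1 has 2, of which the most upstream is given, while the other genes have 1. Capitals mark matches on either strand to the NFAT core GGAAA, the AP-1 site TGANTCA, the Egr site GCGTGGGCG, the CRE TGACGTCA, the E-box CACGTG and the GC box GGGCGG.
Slc29a1, chr17:45599569-45599868, minus strand: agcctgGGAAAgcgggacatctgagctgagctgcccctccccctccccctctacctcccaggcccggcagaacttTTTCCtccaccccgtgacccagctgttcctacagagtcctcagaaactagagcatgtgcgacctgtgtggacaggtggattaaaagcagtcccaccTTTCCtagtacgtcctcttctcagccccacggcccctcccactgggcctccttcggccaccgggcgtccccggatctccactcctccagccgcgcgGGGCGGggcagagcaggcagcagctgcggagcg
Slc29a3, chr10:60752733-60753032, minus strand: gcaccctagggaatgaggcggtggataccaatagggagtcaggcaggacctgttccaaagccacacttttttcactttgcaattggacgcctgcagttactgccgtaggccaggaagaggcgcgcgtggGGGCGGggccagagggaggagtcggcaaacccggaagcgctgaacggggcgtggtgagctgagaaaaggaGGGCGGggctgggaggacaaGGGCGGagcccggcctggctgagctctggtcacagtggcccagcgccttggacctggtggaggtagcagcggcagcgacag
Slc25a33, chr4:149774218-149774517, minus strand: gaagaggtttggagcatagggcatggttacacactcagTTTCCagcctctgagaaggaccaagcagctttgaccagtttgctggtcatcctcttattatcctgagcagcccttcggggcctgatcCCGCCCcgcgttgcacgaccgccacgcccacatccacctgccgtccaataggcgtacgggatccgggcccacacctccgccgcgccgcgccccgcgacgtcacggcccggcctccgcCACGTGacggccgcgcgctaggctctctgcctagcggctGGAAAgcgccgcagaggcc
Slc20a1, chr2:129198523-129198822, plus strand: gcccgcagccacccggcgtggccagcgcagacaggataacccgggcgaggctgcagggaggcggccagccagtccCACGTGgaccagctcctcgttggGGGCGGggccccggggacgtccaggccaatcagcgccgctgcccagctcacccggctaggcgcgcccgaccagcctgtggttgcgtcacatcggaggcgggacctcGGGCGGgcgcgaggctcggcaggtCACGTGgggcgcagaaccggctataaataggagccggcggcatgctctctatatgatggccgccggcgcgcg
Slc25a40, chr5:8422588-8422887, plus strand: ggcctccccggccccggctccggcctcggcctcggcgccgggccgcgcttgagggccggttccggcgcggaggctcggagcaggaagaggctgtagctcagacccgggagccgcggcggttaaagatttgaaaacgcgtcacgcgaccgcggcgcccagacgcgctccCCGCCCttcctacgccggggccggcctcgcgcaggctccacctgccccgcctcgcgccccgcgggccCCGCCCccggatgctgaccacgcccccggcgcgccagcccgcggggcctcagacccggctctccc

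The window of Slc29a1 held 3 NFAT cores and 1 GC box, that of Slc29a3 3 GC boxes and no NFAT core, and that of Slc25a33 2 NFAT cores, 1 E-box and 1 GC box. Slc20a1 had 2 E-boxes and 2 GC boxes, and Slc25a40 had 2 GC boxes. AP-1, Egr and CRE letters were in none of these 5 windows. Over all 32851 RefSeq windows of this length the NFAT core was in 61.3%, the GC box in 35.7%, the AP-1 site in 7.81%, the E-box in 7.15%, the CRE in 1.79% and the Egr site in 0.612%. In the 90 windows of the 62 solute carrier genes, changed or not, these shares were 58.9%, 71.1%, 5.56%, 12.2%, 2.22% and 3.33%. A GC box was thus common in these windows, whether the gene changed or not. The 90 windows are only of genes that reached the minimum, and some genes give several. The 32851 windows were not chosen by level, so the 2 sets are unlike, and no difference in shares was tested. A match of letters is a description and does not show that a factor binds.

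Of 12 amino acid carriers, 7 were 2-fold apart in some comparison (all genes 36.3%). With anti-TCR alone against mock 1 of 11 measured rose (all genes 11.4%) and 3 fell (13.9%), and 1 of the 3 is Slc1a5, whose direction is not settled. Slc38a1 encodes SNAT1, a sodium-coupled carrier of glutamine and other neutral amino acids. It read 385 with CSA, 130.1 with PKCi, 467 with Combo, 1024 with anti-TCR alone and 162 with mock. Its rise with anti-TCR alone was 6.3-fold (2.66), and it fell 2.66-fold with CSA (-1.41), 7.87-fold with PKCi (-2.98) and 2.19-fold with Combo (-1.13). The PKCi value lay below that of mock, and the CSA and Combo values lay between mock and anti-TCR alone.

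Slc1a5 encodes ASCT2, a sodium-dependent exchanger of neutral amino acids and a main route of glutamine entry, and its 3 bright probe sets disagreed. The one used by the rule, on chip C with an f suffix, which marks sequence shared with other transcripts, read 9243 with CSA, 8042 with PKCi, 7847 with Combo, 2094 with anti-TCR alone and 7987 with mock. On it the gene fell 3.81-fold with anti-TCR alone (-1.93) and rose 4.41-fold, 3.84-fold and 3.75-fold with CSA, PKCi and Combo. The unsuffixed probe set, on chip A, read 427 with CSA, 326 with PKCi, 693 with Combo, 1409 with anti-TCR alone and 116.3 with mock. There the gene rose 12.1-fold with anti-TCR alone (3.60), and the inhibitor ratios were -1.72, -2.11 and -1.02.

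The third probe set of Slc1a5, also on chip C with an f suffix, read 1252 with CSA, 800.1 with PKCi, 1372 with Combo, 1766 with anti-TCR alone and 812.5 with mock. Its ratio for anti-TCR alone against mock was 1.12. So 2 of 3 probe sets placed the anti-TCR value highest and the brightest placed it lowest, and these data do not settle the direction of Slc1a5. With the unsuffixed probe set in its place, Slc1a5 counts among the genes that rose with anti-TCR alone and fell with each inhibitor.

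**Figure D2:**
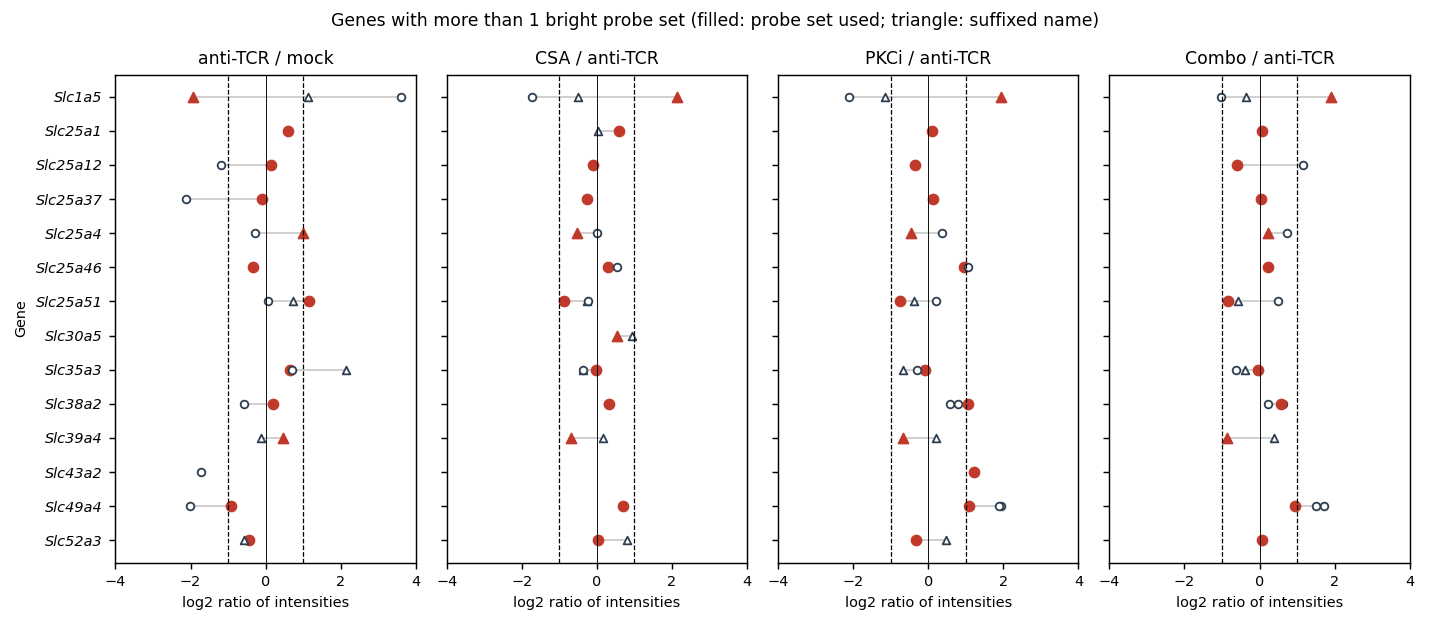
Log2 ratio of array intensities (x axis) on each bright probe set of the 14 solute carrier genes (rows) that have more than 1, in the 4 comparisons. Each mark is 1 probe set measured in that comparison, filled where it is the one used and a triangle where its name has a suffix, and a grey line joins the marks of a gene. The 3 marks of Slc1a5 span -1.93 to 3.60 for anti-TCR alone against mock, and the probe sets of most other genes lie closer together.

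Of the other amino acid carriers, Slc38a2 encodes SNAT2, a glutamine carrier whose gene is known to respond to amino acid shortage. It read 2840.4 with CSA, 4707 with PKCi, 3338 with Combo, 2266 with anti-TCR alone and 1971 with mock. The PKCi array was highest, 2.08-fold above anti-TCR alone (1.05, within 2 technical SDs, 1.43), and further probe sets gave 0.57 and 0.80. Slc38a9, a lysosomal arginine sensor upstream of mTOR, read 162.5 with CSA, 313 with PKCi, 218 with Combo, 82.0 with anti-TCR alone and 282 with mock. It fell 3.44-fold with anti-TCR alone (-1.78) and rose 3.81-fold with PKCi (1.93).

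Slc6a17, a carrier of neutral amino acids known from synaptic vesicles, was lowest with anti-TCR alone, at 91.6, against 241 with CSA, 252 with PKCi, 209 with Combo and 299 with mock. It fell 3.27-fold with anti-TCR alone (-1.71) and rose 2.64-fold with CSA (1.40) and 2.75-fold with PKCi (1.46). Slc43a2, the LAT4 carrier of large neutral amino acids, read 86.6 with CSA, 283 with PKCi, 139.8 with Combo, 121.9 with anti-TCR alone and 250.3 with mock, a 2.32-fold rise with PKCi. A second unsuffixed probe set of Slc43a2 read 211 with PKCi, 99.8 with anti-TCR alone and 329 with mock. It gave -1.72 for anti-TCR alone against mock and was not measured for PKCi. Slc6a13, a carrier of GABA and taurine, read 146 with CSA, 92.6 with PKCi, 100.7 with Combo, 222 with anti-TCR alone and 126 with mock, so it fell 2.4-fold with PKCi (-1.26) and 2.21-fold with Combo (-1.14). On the probe sets used, Slc43a2 and Slc6a13 lay close to the minimum at their brightest. The taurine carrier Slc6a6 (329 to 651), the glycine carrier Slc6a9 (289.6 to 543.5), the cationic amino acid carrier Slc7a3 on an i-suffixed probe set (277 to 623), Slc7a14 (140.1 to 260.3) and Slc38a10 (170.3 to 379) were 2-fold apart in no comparison.

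**Figure D3:**
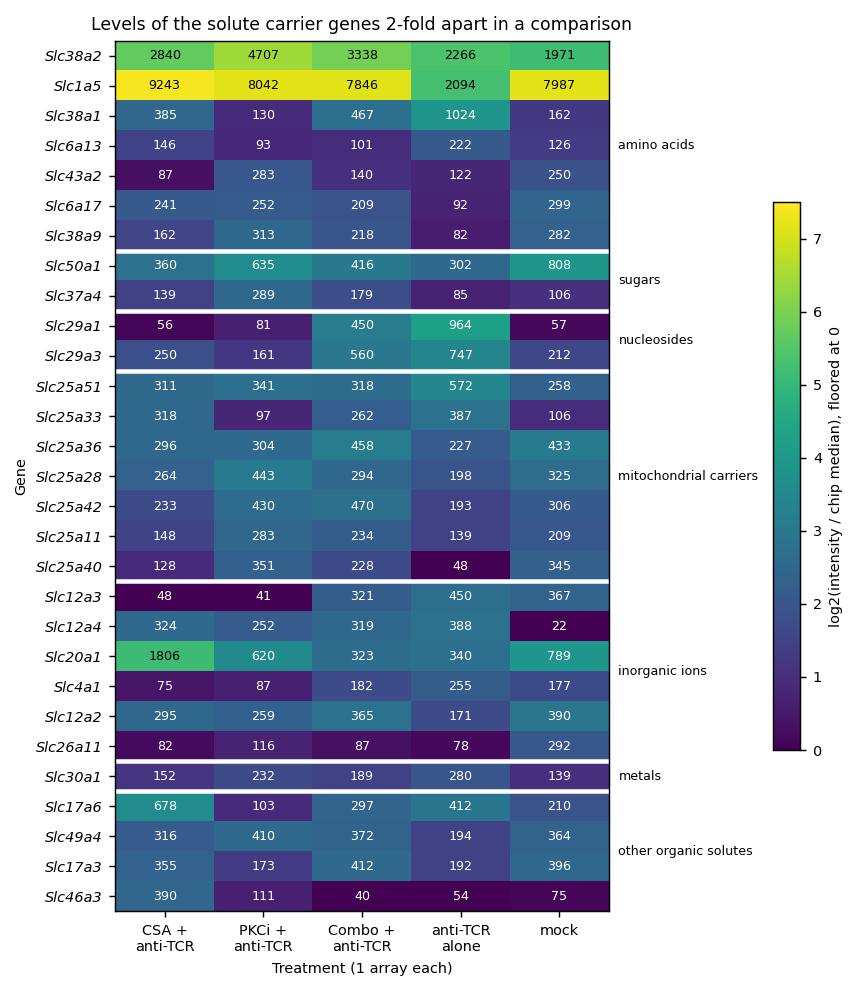
Array intensity of the 29 solute carrier genes that were at least 2-fold apart in a comparison (rows, grouped by transport class) in the 5 treatments (columns, 1 array each). Numbers are rounded intensities, and the colour is log2 of intensity over the chip median, with values below it set to 0. The nucleoside genes and Slc38a1 are brightest with anti-TCR alone, Slc20a1 and Slc46a3 with CSA, and Slc25a40 is dark with anti-TCR alone (47.7).

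Of 8 genes of the sugar class that reached the minimum, 2 were 2-fold apart in some comparison (25%, all genes 36.3%). With anti-TCR alone 0 of 7 measured rose and 1 fell (all genes 11.4% and 13.9%), and with PKCi 2 of 8 rose (all genes 14.3%). The gene that fell with anti-TCR alone was Slc50a1, a member of the SWEET family of sugar transporters, at 360 with CSA, 635 with PKCi, 416 with Combo, 302 with anti-TCR alone and 808 with mock. It fell 2.67-fold with anti-TCR alone (-1.42) and was 2.1-fold higher with PKCi (1.07, and 0.995 with quantile normalization). Slc37a4, the glucose 6-phosphate translocase of the endoplasmic reticulum, read 138.8 with CSA, 289 with PKCi, 179 with Combo, 85 with anti-TCR alone and 106 with mock, and rose 3.4-fold with PKCi (1.77). The other 6 were 2-fold apart in no comparison, among them Slc37a3 (564 to 1141), the renal glucose carrier Slc5a2 (429 to 774), the multivitamin carrier Slc5a6 (304 to 412) and the intracellular hexose carrier Slc2a8 (179 to 296).

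Mitochondrial carriers were the most numerous class, with 18 genes. Of these, 7 were 2-fold apart in some comparison (38.9%, all genes 36.3%). Of 17 measured with anti-TCR alone against mock 2 rose and 1 fell (all genes 11.4% and 13.9%). Slc25a33, a carrier of pyrimidine nucleotides whose probe set has an r suffix, read 317.5 with CSA, 96.9 with PKCi, 262.5 with Combo, 387 with anti-TCR alone and 106 with mock. It rose 3.64-fold with anti-TCR alone (1.86) and fell 3.99-fold with PKCi (-2.00), with -0.28 for CSA and -0.56 for Combo. CSA and PKCi therefore lay on different sides of the minimum of 220 for this gene, unlike for Slc29a1, where both lay below it.

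Slc25a40, a carrier linked to mitochondrial glutathione import, showed the largest fall with anti-TCR alone among the probe sets used for solute carrier genes. It read 128 with CSA, 351 with PKCi, 228 with Combo, 47.7 with anti-TCR alone and 345 with mock. With anti-TCR alone it was below the floor, at least 4.96-fold under mock (-2.31), and with PKCi it was at least 5.05-fold above anti-TCR alone (2.34). Slc25a51, the mitochondrial NAD carrier, read 311 with CSA, 341 with PKCi, 318 with Combo, 572 with anti-TCR alone and 258 with mock, a 2.22-fold rise with anti-TCR alone (1.15). Its 2 further probe sets gave 0.74 and 0.06, and the mean of the 3 (0.65) is under 2-fold.

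With PKCi against anti-TCR alone, 4 of 18 mitochondrial carriers rose (all genes 14.3%) and 1 fell (all genes 9.75%), the 4 being Slc25a40, Slc25a28, Slc25a42 and Slc25a11. Slc25a28, the iron carrier mitoferrin 2, read 263.5 with CSA, 443 with PKCi, 294 with Combo, 197.5 with anti-TCR alone and 325 with mock (2.24-fold, 1.16). Slc25a42, a carrier of coenzyme A, read 233 with CSA, 430.5 with PKCi, 469.9 with Combo, 193 with anti-TCR alone and 306 with mock, and rose 2.23-fold with PKCi (1.15) and 2.43-fold with Combo (1.28). Slc25a11, the oxoglutarate and malate carrier of the malate shuttle, read 148 with CSA, 283 with PKCi, 234 with Combo, 138.8 with anti-TCR alone and 209 with mock. Its 2.04-fold rise with PKCi (1.03) was 0.95 with quantile normalization. Slc25a36, a second pyrimidine nucleotide carrier, read 296 with CSA, 304.5 with PKCi, 457.5 with Combo, 227 with anti-TCR alone and 433 with mock. It rose 2.01-fold with Combo (1.01, and 0.91 with quantile normalization). Apart from Slc25a40, Slc25a33 and Slc25a42 with Combo, the mitochondrial changes lay within 2 technical SDs.

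The remaining 11 mitochondrial carriers were 2-fold apart in no comparison on the probe sets used. Slc25a4, an ADP and ATP exchanger read on an f-suffixed probe set, was at 862 with CSA, 909.5 with PKCi, 1455 with Combo, 1242.5 with anti-TCR alone and 621 with mock. Its ratio for anti-TCR alone against mock fell just short of 2-fold, and the unsuffixed probe set on chip A gave -0.27. The aspartate and glutamate carrier Slc25a12 read 589 to 895 on the probe set used, while a second one gave -1.18 for anti-TCR alone against mock and 1.15 for Combo against anti-TCR alone. The citrate carrier Slc25a1 read 271 to 617. Slc25a39, a paralogue of Slc25a40 linked to glutathione too, read 509 with CSA, 698 with PKCi, 597 with Combo, 461 with anti-TCR alone and 535 with mock, with no ratio at 2-fold. Slc25a37, mitoferrin 1, gave -0.09 for anti-TCR alone on the probe set used and -2.11 on a second one. For PKCi against anti-TCR alone Slc25a46 gave 0.94 on the probe set used and 1.06 on a second one. Both values lay within 2 technical SDs (1.43).

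Among carriers of inorganic ions, 6 of 8 genes were 2-fold apart in some comparison (75%, all genes 36.3%). Slc20a1 encodes PiT-1, a sodium-dependent importer of phosphate. Its intensity was 1806 with CSA, 620 with PKCi, 323 with Combo, 340 with anti-TCR alone and 789 with mock. The CSA array was the highest, 5.31-fold above anti-TCR alone (2.41) and also above mock. The fall with anti-TCR alone, 2.32-fold (-1.21), lay within 2 technical SDs (1.51).

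Slc12a3 encodes the sodium chloride cotransporter NCC, known chiefly from the distal tubule of the kidney. It read 47.7 with CSA, 40.7 with PKCi, 321 with Combo, 450.3 with anti-TCR alone and 367 with mock. The CSA and PKCi arrays lay below the floor of 69.5 and the other 3 above the minimum, so the gene fell at least 6.48-fold with CSA and at least 6.48-fold with PKCi, with 0.29 for anti-TCR alone against mock. Slc4a1, band 3 of red cells, whose probe set has an r suffix, read 74.9 with CSA, 87.4 with PKCi, 182 with Combo, 255 with anti-TCR alone and 177 with mock. It fell 3.41-fold with CSA (-1.77, and -1.21 with the floor at 2 times the median) and 2.92-fold with PKCi (-1.55), while the erythroid marker Alas2 stayed at or below 38.8 on every array, under the floor of 51.1.

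Slc12a4 and Slc12a2 encode cation chloride cotransporters, KCC1, which exports potassium, and NKCC1, which imports sodium and potassium. Slc12a4, on an f-suffixed probe set, read 324 with CSA, 252 with PKCi, 319 with Combo, 388 with anti-TCR alone and 22.4 with mock. All 4 stimulated arrays lay above the minimum of 220 and mock below the floor, so the gene was at least 7.05-fold higher with anti-TCR alone (2.82), with inhibitor ratios of -0.26, -0.62 and -0.28. Slc12a2 read 295 with CSA, 259 with PKCi, 365 with Combo, 171 with anti-TCR alone and 389.8 with mock. It fell 2.27-fold with anti-TCR alone (-1.19) and rose 2.13-fold with Combo (1.09). Slc26a11, a sulfate carrier, read 81.6 with CSA, 116 with PKCi, 87.1 with Combo, 77.9 with anti-TCR alone and 292 with mock, a 3.75-fold fall (-1.91, and -1.07 with the floor at 2 times the median) that left all 4 stimulated arrays below the minimum. The sodium proton exchanger Slc9a8 (315 to 379) and the phosphate carrier Slc34a3 (288 to 524) were 2-fold apart in no comparison.

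**Figure D4:**
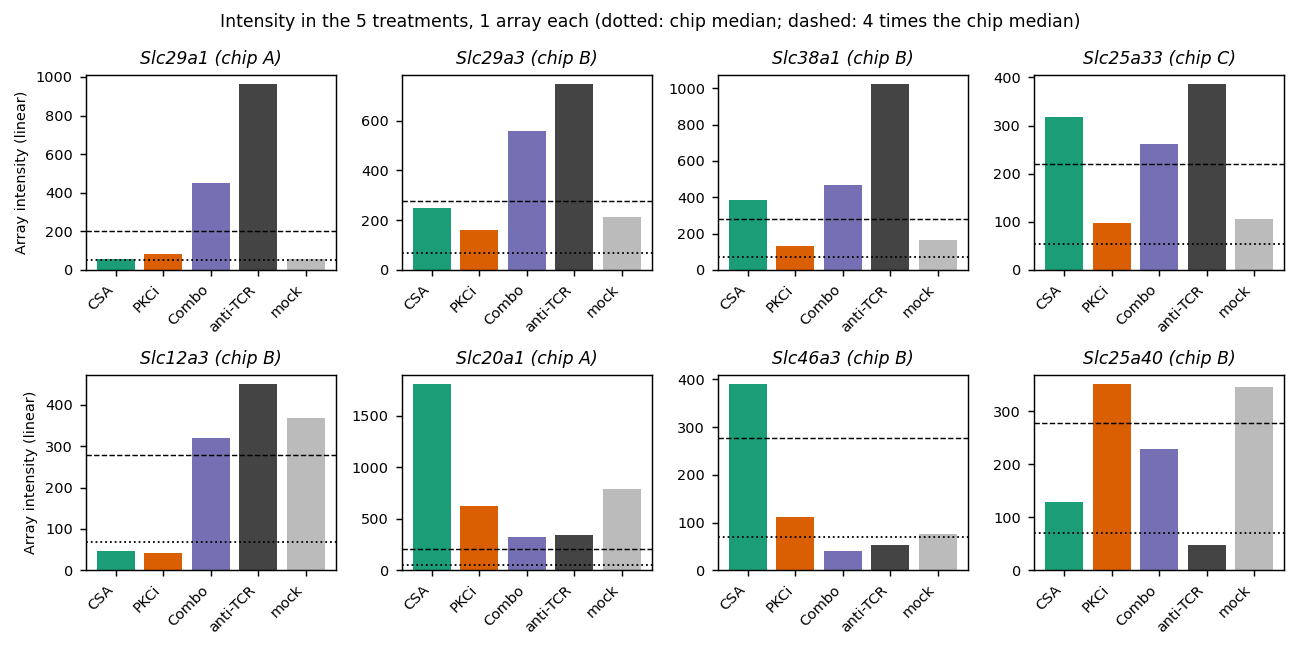
Linear array intensity (y axis, from 0) of 8 solute carrier genes in the 5 treatments, 1 bar per array, with the chip median dotted and 4 times the chip median dashed. The top row shows 4 genes that rose with anti-TCR alone, of which Slc25a33 and Slc38a1 stay above the dashed line with CSA (317.5 and 385) and lie below it with PKCi (96.9 and 130.1). In the bottom row Slc12a3 is dark with CSA and PKCi, Slc20a1 and Slc46a3 are highest with CSA (1806 and 389.8), and Slc25a40 is dark with anti-TCR alone.

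Of 16 metal carriers, 15 were 2-fold apart in no comparison and 1 was in some comparison (6.25%, all genes 36.3%). The class had 0 rises and 0 falls with CSA (12 measured), PKCi (13) and Combo (10), where 4.84% to 14.3% of all genes were called in a direction. The exception was Slc30a1, the ZnT1 exporter that removes zinc from the cell, at 152 with CSA, 232 with PKCi, 189 with Combo, 280.0 with anti-TCR alone and 139 with mock. Its 2.01-fold rise (1.01) is within 2 technical SDs and rests on a value just above the minimum of 278. Slc39a7, a zinc carrier of the endoplasmic reticulum, read 454 with CSA, 338 with PKCi, 489.5 with Combo, 499 with anti-TCR alone and 252 with mock, and its ratio of 0.99 fell short. Slc30a3 (751 to 1155), Slc39a3 (744 to 1053) and, on an r-suffixed probe set, Slc39a4 (703 to 1288), all zinc carriers, were 2-fold apart in no comparison, and neither was the iron carrier Slc11a2 (159 to 291). The copper importer Slc31a1 reached the minimum with CSA alone (211), against 62.3 with PKCi, 86.7 with Combo, 171 with anti-TCR alone and 53.4 with mock, and was measured only in the CSA comparison (0.31).

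Of 16 carriers of other organic solutes, 12 were 2-fold apart in no comparison and 4 were in some (25%, all genes 36.3%). Slc46a3, a lysosomal membrane carrier, read 389.8 with CSA, 110.7 with PKCi, 39.5 with Combo, 53.8 with anti-TCR alone and 75.3 with mock. It was bright with CSA and below the minimum of 278 in the other 4 treatments, at least 5.61-fold higher with CSA than with anti-TCR alone (2.49). Slc17a6, a vesicular glutamate carrier known from neurons and read on an f-suffixed probe set, was at 678 with CSA, 103 with PKCi, 297 with Combo, 412 with anti-TCR alone and 209.7 with mock, and fell 4-fold with PKCi (-2.00). Slc17a3, an organic anion carrier on an f-suffixed probe set, read 355 with CSA, 173 with PKCi, 412 with Combo, 192 with anti-TCR alone and 396 with mock. It fell 2.06-fold with anti-TCR alone (-1.04) and rose 2.14-fold with Combo (1.10).

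Slc49a4, a lysosomal carrier, was the only solute carrier gene with 3 bright probe sets that were all higher with PKCi than with anti-TCR alone by at least 2-fold. The probe set used read 316 with CSA, 410.1 with PKCi, 372 with Combo, 193.5 with anti-TCR alone and 364 with mock (1.08 for PKCi), and the others gave 1.94 and 1.87. For Combo against anti-TCR alone the 3 gave 0.94, 1.70 and 1.51, in the same order. For anti-TCR alone against mock the probe set used gave -0.91 and the last -2.02, and the other was not measured. The low anti-TCR value thus enters the PKCi and Combo ratios alike. Among those 12 were Slc22a18 (943 to 1076), the riboflavin carrier Slc52a3 (539 to 925), the fatty acid carrier Slc27a1 (365 to 961), the thiamine carrier Slc19a2 (327 to 417) and the heme carrier Slc48a1 (153 to 253). In the monocarboxylate and dicarboxylate class 1 gene reached the minimum, Slc13a4 (f-suffixed, 641 to 992). It was placed there by family number, which does not show the solute it carries. Slc13a4 and the nucleotide sugar carriers Slc35a3 (232 to 364) and, i-suffixed, Slc35a4 (182 to 237.5) were 2-fold apart in no comparison. An i-suffixed probe set of Slc35a3 gave 2.15 for anti-TCR alone against mock, where its 2 unsuffixed ones gave 0.65 and 0.70.

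Against the technical spread, 10 of the 16 changes with anti-TCR alone, all 9 with CSA, 12 of 20 with PKCi and 4 of 8 with Combo lay past 2 technical SDs (1.51, 0.96, 1.43 and 1.11). For CSA this was fixed in advance, since 0.96 lies below the 2-fold cut, so it does not set the CSA changes apart. Only 14 of the 84 genes had more than 1 bright probe set. Among changed genes with a further bright probe set measured in the same comparison, all moved the same way in 1 case with anti-TCR alone and in 2 with PKCi. The other way went Slc1a5, in each of the 4 comparisons. Of the 84 genes, 13 were read on suffixed probe sets.

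The genes just above the level limit were Slc30a1 (280.0 against a minimum of 278), Slc43a2 (283 against 278) and Slc31a1 (211 against 204.4). Just below it were the lysosomal sialic acid carrier Slc17a5 (277.1), Slc39a13 (275.4) and Slc38a6 (275.4), all against 278. In all, 189 solute carrier genes did not reach it. Among them were 42 of 54 genes of the amino acid class, 15 of 16 of the monocarboxylate and dicarboxylate class and 22 of 40 mitochondrial carrier genes. Among those below the minimum, looked up after their values were seen, the lactate carriers Slc16a1 and Slc16a3 read at most 60.9 and 175, the cystine exchanger Slc7a11 at most 28.9 and the arginine carrier Slc7a1 at most 273.5. Low readings can also come from failed probes, and they are no proof of silence.

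Among 25 transport partners, a list of the 4 carriers left out above with organic anion carriers, chaperones, sodium pump subunits and ABC transporters, 21 were on the arrays. The list was chosen with earlier results of these data known, so its shares beside those of all genes are a description only. Of 13 measured, 4 rose with anti-TCR alone against mock (all genes 11.4%), Slc7a5 (4.76-fold) and its heavy chain Slc3a2 (4.37-fold), Bsg (2.73-fold), the chaperone of lactate carriers, and Abcc5 (2.68-fold, r-suffixed). The 3 that fell (all genes 13.9%) were Slco6b1 (5.86-fold, i-suffixed), Abcg1 (at least 4.48-fold), a sterol exporter, and Emb (2.74-fold), a second chaperone of lactate carriers. The changes of Bsg, Abcc5 and Emb with anti-TCR alone lay within 2 technical SDs (1.51). The median of the measured partners was 0.25. With PKCi against anti-TCR alone 3 of 13 rose (all genes 14.3%) and 4 fell (9.75%). Emb read 308.5 with CSA, 1137 with PKCi, 448 with Combo, 202 with anti-TCR alone and 554 with mock, while Slc7a5 read 545 with CSA, 164 with PKCi, 509.7 with Combo, 1046 with anti-TCR alone and 219.6 with mock. With CSA 1 of 12 rose and 1 fell (all genes 4.84% and 5.34%), and with Combo 2 of 12 rose and 1 fell (7.95% and 5.46%). The glucose carrier Slc2a1 stayed below the minimum (at most 131.4), and Slc2a3, on an f-suffixed probe set, read 559 with CSA, 257 with PKCi, 602 with Combo, 588 with anti-TCR alone and 304 with mock.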

How the data were processed

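The authors deposited 1 table of array intensity values per chip type, with 12422 (A), 12411 (B) and 11868 (C) probe sets and 5 arrays each. The deposited values are on a linear scale without negative entries. Within a chip type the 2% trimmed means differ by at most 0.232% (A), 0.242% (B) and 0.153% (C), so they had been scaled to a common level. The software was not given in the sources used here. Detection calls were not used. Of 36701 probe sets, 29131 carry 1 symbol in the platform annotation, 724 several and 6846 none, and only the first kind was used. All 273 solute carrier genes matched the RefSeq gene table of GRCm38.p6 by gene ID, with 0 changed symbols. A suffix (r, i or f among these genes) marks a probe set that breaks a design rule or shares sequence.

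Ratios were taken as described above with Python 3.11.15, numpy 2.4.6 and pandas 2.3.3. For the technical SD, log2 ratios of probe sets of 1 gene were subtracted across chip types, and the SD of these differences was scaled to that of a single ratio. The steps were run on simulated data with changes above 2-fold planted in bright genes and noise below the technical SDs given above. That run gives no error rate for the calls made here. With 1 array per treatment and chip type no test was made. Per class, the genes named are those at least 2-fold apart, the 3 brightest, those next to the level limit, and the partner list, and other examples were chosen after their values were seen. Members, lists and rules were chosen with earlier results of these data known. Alternatives were quantile normalization, median scaling, a floor of 0.5 or 2 times the median, averaging the probe sets of each gene, a minimum of 8 times the median, a minimum on the mean of the 5 treatments, and leaving out suffixed probe sets.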

Additional observations from a re-analysis of the deposited data

How the results depend on the processing

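No paired analysis was possible because each treatment has a single array of every chip type. Of the 53 changes of single genes, 43 stayed at 2-fold or more under every alternative that gave a value. Neither floor could undo a call, since the brighter value is at least 4 times the median. A changed minimum leaves each ratio as it was and only drops genes. It kept 23 of the 53 changes at 8 times the median and 34 on the mean of the 5 treatments. Only quantile normalization, median scaling, averaging and leaving out suffixed probe sets could lower the 43. Slc1a5 reversed. With suffixed probe sets left out it read 3.60 for anti-TCR alone against mock and -1.72, -2.11 and -1.02 for CSA, PKCi and Combo against anti-TCR alone. With the mean of its probe sets it read 0.93, -0.0257 and -0.44 in the first 3 of these, and 0.17 for Combo. The cause was not tested. The counts moved mostly with the minimum, where fewer genes were measured too. At 8 times the median, 4 rose and 3 fell with anti-TCR alone, 2 and 3 with CSA, 4 and 3 with PKCi, and 2 rose with Combo, and the medians were 0.14 for CSA and 0.0776 for Combo. With the minimum on the mean of the 5 treatments, 60 genes were measured in each comparison. Of these, 5 fell with anti-TCR alone (9 of 76 as reported). With CSA 2 rose and 3 fell (4 and 5 of 70), and with PKCi 6 rose and 5 fell (12 and 8 of 78). The rises with anti-TCR alone (6, against 7) and Combo (5, against 5) changed less. With suffixed probe sets left out, 3 rose with Combo. The other 81 of 96 recomputed counts and medians kept within 1.5 times the count, or within the technical error of the median. Among them, every count and median under either floor was as reported. For the counts this was fixed in advance by the minimum of 4 times the median and the 2-fold cut. Folds with a value near or below the floor depend on it. For Slc12a4 with anti-TCR alone the log2 ratio was 3.82 with 0.5 times the floor and 1.82 with 2 times, and for Slc12a3 with CSA -3.24 and -1.70. With 2 times the floor Slc25a40 read -1.31 for anti-TCR alone and 1.34 for PKCi, and Slc46a3 1.49 for CSA.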

Other observations

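Probe sets that carry several symbols were left out of the gene values above, and 5 of them name a solute carrier. The one shared by Slc28a2b and Slc28a2, sodium-coupled purine nucleoside carriers, read 241 with CSA, 372 with PKCi, 318 with Combo, 164 with anti-TCR alone and 475 with mock, a log2 ratio of -1.53 for anti-TCR alone against mock. It was thus lowest with anti-TCR alone, where the equilibrative carrier Slc29a1 was highest (964). The probe set shared by Slc9a7 and 1 further gene read 311 with CSA, 411 with PKCi, 377 with Combo, 323 with anti-TCR alone and 442 with mock, with no ratio at 2-fold. The other 3 stayed below the minimum.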
